A study of Homo sapiens with 6 samples.

Results

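The genes described here are 41 genes of glycolysis and of the cellular response to low oxygen, chosen by name as a module. They were matched through RefSeq symbols to the numeric NCBI gene identifiers of the deposited table, and all 41 had a row among its 23459. The libraries came from Raji cells, an established line from a Burkitt's lymphoma of germinal centre origin. In 3 libraries the cells carried the non-targeting lentiviral hairpin SHC002 (control shRNA), and in 3 they carried a hairpin against OBF1, OBF1sh1 (OBF1 shRNA). All cells of both groups went through lentiviral infection for 5 days and puromycin selection for 7 days at 3 μg/ml, and were used as selected populations. POU2AF1 is the gene of OBF1, a cofactor that Oct transcription factors recruit in B cells. A single hairpin was used against it, so an effect of lower OBF1 and an effect of the hairpin on other transcripts cannot be told apart.

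Glycolysis splits glucose into pyruvate in the cytosol, and lactate dehydrogenase turns pyruvate into lactate to regenerate NAD+. Most of its steps can be run by several isozymes, encoded by separate genes that differ in tissue and regulation. The glycerol phosphate shuttle is another way to regenerate NAD+: GPD1 in the cytosol makes glycerol 3-phosphate, and GPD2 in the inner mitochondrial membrane oxidises it again and passes the electrons to ubiquinone. When oxygen is low, the transcription factor HIF1A escapes the EGLN prolyl hydroxylases that mark it for destruction through VHL, and it then activates many glycolytic genes together with VEGFA, BNIP3, KDM3A and collagen hydroxylases. HIF1A is regulated mainly as a protein, which RNA sequencing does not measure.

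HIF binds short sequences with the core ACGTG or GCGTG. RefSeq promoter sequences (build GRCh38.p14) were found for 35 of the 41 genes; SLC2A3, PFKFB2, SLC16A1, GPD1, VEGFA and BNIP3L had no entry. Of these 35, 21 (60%) held ACGTG or GCGTG on either strand in the 250 bases before the annotated gene start, as did 43.2% of 35116 promoters of that length. The E-box CACGTG, which contains ACGTG, was in 4 of the 35 (11.4%) and in 6.34% of all promoters. The octamer ATGCAAAT, the motif of the Oct factors, was in 1 of the 35, that of EGLN3, and in 1.63% of all promoters. The genes were picked as glycolytic and hypoxia response genes, so these shares are a description. The 250 bases follow for ALDOC and GPD2, which had the largest gain and the largest loss among the 41 genes, for PLOD2, which had the second largest loss, and for LDHA, a classical HIF target. Each is written 5′ to 3′ on the gene's strand, and capitals mark ACGTG or GCGTG on either strand.
ALDOC, chr17:28576896-28577145, minus strand: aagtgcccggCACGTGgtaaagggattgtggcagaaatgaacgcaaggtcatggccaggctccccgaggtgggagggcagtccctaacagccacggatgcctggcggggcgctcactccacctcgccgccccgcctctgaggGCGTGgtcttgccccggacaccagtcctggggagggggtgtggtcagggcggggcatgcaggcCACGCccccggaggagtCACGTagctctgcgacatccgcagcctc
LDHA, chr11:18394313-18394562, plus strand: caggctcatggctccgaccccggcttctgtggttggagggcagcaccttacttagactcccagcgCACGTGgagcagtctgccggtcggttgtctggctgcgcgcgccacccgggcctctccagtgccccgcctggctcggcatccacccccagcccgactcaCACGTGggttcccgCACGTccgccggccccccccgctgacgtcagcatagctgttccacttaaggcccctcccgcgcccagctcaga
PLOD2, chr3:146161185-146161434, minus strand: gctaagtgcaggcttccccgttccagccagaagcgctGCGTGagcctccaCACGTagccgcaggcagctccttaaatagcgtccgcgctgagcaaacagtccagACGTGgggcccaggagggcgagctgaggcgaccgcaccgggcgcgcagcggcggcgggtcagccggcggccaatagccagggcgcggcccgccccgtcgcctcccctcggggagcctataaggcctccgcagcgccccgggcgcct
GPD2, chr2:156435302-156435551, plus strand: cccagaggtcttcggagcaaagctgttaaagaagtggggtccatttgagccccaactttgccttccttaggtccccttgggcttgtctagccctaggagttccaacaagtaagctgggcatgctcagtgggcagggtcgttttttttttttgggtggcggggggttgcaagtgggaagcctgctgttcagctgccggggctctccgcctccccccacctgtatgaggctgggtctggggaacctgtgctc
Counting overlapping matches as 1, the ALDOC window held 4 such cores, the LDHA and PLOD2 windows 3 each, and the GPD2 window 0. ALDOC and PLOD2, whose transcripts changed in opposite directions in the results given next, thus both carried the core, which as a match of letters shows no binding.

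The libraries held between 29569281 and 32612429 gene counts each. POU2AF1, the targeted transcript, fell 2.12-fold, from between 512 and 516 CPM (gene counts scaled to a common library size) in the control libraries to between 241 and 244 CPM in the OBF1 shRNA libraries (edgeR quasi-likelihood adjusted p = 1.25e-17). The 8 B cell markers examined were detected in all 6 libraries. They summed to between 2716 and 2785 CPM with the control hairpin and between 4833 and 4884 CPM in OBF1 shRNA cells. Of the 8, 7 were higher and 1, CD79B, was lower (edgeR adjusted p under 0.05). By group mean, MS4A1 went from 702 to 2078 CPM and CR2 from 226 to 655 CPM. CD79A went from 548 to 603 CPM, PAX5 from 153 to 218 CPM and CD79B from 664 to 610 CPM. Markers of 293T packaging cells summed to at most 0.476 CPM in any library, those of T and NK cells to at most 0.926 CPM and those of myeloid cells to at most 2.20 CPM. Whether the libraries within a group derive from different cultures is not stated in the labels, and all p-values therefore reflect only how these libraries vary, possibly just technically.

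Most glycolytic enzyme genes were slightly higher in OBF1 shRNA cells, and a few isozymes rose several-fold. The HIF targets VEGFA, KDM3A and BNIP3L fell, while EGLN1 and PDK1, also HIF targets, rose slightly. Of the 41 genes, 38 passed the count filter. Of these 38, 24 were higher, 9 were lower and 5 did not pass the test (p under 0.05 in edgeR's quasi-likelihood test after Benjamini-Hochberg adjustment over all 12010 genes tested). Over all tested genes 75.4% were called, 37.5% as higher and 37.9% as lower, so the call itself is common in this comparison. The median log2 fold change was 0.22 for the 38 genes and -0.01 for all tested genes. At 1.5-fold or more, 7 genes were higher and 5 lower, against 12.9% and 10.4% of all tested genes. The groups did not overlap for 35 of the 38, against 76.6% of all tested genes. With library sizes alone, without a factor for composition, all log2 fold changes moved by about -0.11. The 24 higher and 9 lower genes became 21 and 12, and over all genes 4508 higher and 4550 lower became 3476 and 5778. SLC2A3 reached the filter's minimum in 1 control and 3 OBF1 shRNA libraries, and GPD2 in 3 control and 2 OBF1 shRNA libraries. Each thus had all 3 libraries past it only in the group where it was high. No weight therefore rests on the number of called genes, nor on the 7 higher and 5 lower at 1.5-fold, which include SLC2A3 and GPD2.

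**Figure D1:**
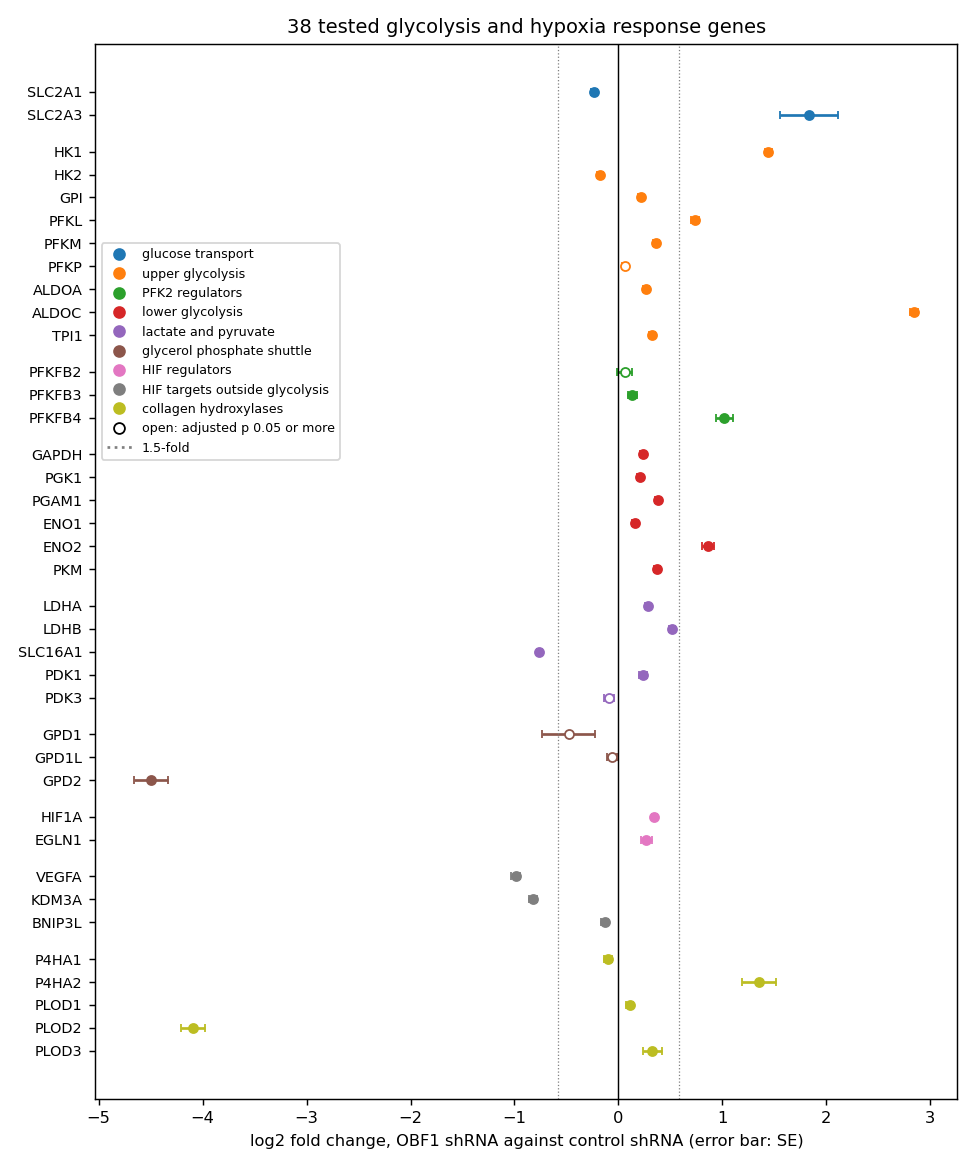
Log2 fold change of OBF1 shRNA against control shRNA for the 38 tested genes, by role, with the standard error as bar; filled points passed the edgeR test and dotted lines mark 1.5-fold. ALDOC lies farthest right at 2.84, GPD2 and PLOD2 lie farthest left at -4.50 and -4.09, and most enzymes of the main glycolytic chain lie between 0 and 0.6; with library sizes alone all points shift by about -0.11, which puts PFKP, PFKFB2 and PLOD1 just below 0.

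**Figure D2:**
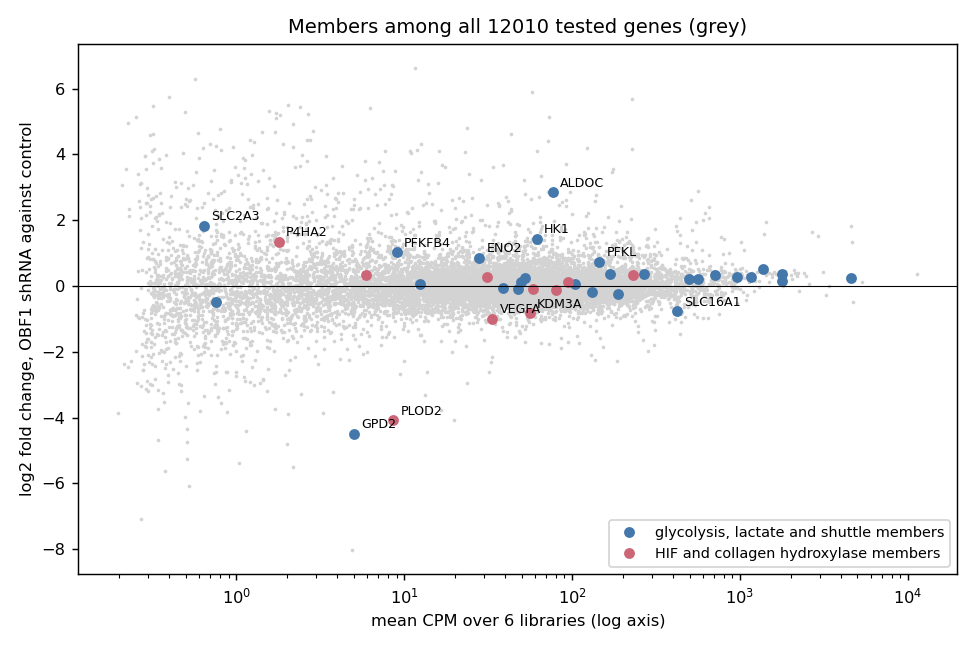
Log2 fold change against mean CPM over the 6 libraries (log axis) for the 38 tested genes, in colour, among all 12010 tested genes in grey. GPD2 and PLOD2 lie below nearly all genes of like level, and ALDOC lies above most of them.

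Of the glucose transporters, SLC2A1 was the form in use by transcript level, and it fell slightly. SLC2A1 encodes GLUT1, the basal glucose transporter of most cells. Its level was 201, 208 and 202 CPM in control libraries 1 to 3 and 175, 169 and 175 CPM in the OBF1 shRNA libraries, a fall by 0.24 on the log2 scale (SE 0.03, edgeR adjusted p = 3.65e-07). SLC2A3 (gene identifier 6515), which encodes the high-affinity transporter GLUT3, rose 3.56-fold, but only from 6, 12 and 9 counts to 31, 30 and 30 counts (edgeR adjusted p = 1.24e-05). SLC2A3 passed the count filter only through the OBF1 shRNA group, where it was high. Its call and the separation of its groups, every OBF1 shRNA library above every control library, therefore carry no weight. It made up 0.542% ± 0.0341 (SD, n = 3) of the summed level per length of both transporters in OBF1 shRNA cells. It has a near-identical copy, SLC2A14, so its value is uncertain. A rise per cell and a rise in the share of cells that express a gene cannot be told apart in these bulk libraries, here or below.

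Hexokinase, the entry step that phosphorylates glucose, changed its make-up. HK1 (gene identifier 3098), the widely expressed form, held 32.8, 33.4 and 33.1 CPM in control libraries and 91.3, 88.4 and 90.3 CPM in OBF1 shRNA libraries, a 2.72-fold rise (log2 fold change 1.44, SE 0.04, edgeR adjusted p = 9.58e-17). HK2, the form that hypoxia and growth signals induce, went from 139, 140 and 139 CPM to 125, 121 and 123 CPM and fell by 0.18 on the log2 scale (SE 0.03, edgeR adjusted p = 1.43e-05). Neither gene's groups overlapped. Per gene length, HK1 was 26.0% ± 0.111 of all hexokinase transcript in control libraries and 51.8% ± 0.0661 in OBF1 shRNA libraries (SD, n = 3), so that it overtook HK2 on this scale. Without division by length it did not, at 90.0 ± 1.48 CPM against 123 ± 2.20 CPM for HK2 in OBF1 shRNA libraries. The summed level per length of the hexokinases rose from 26.6 ± 0.152 to 36.3 ± 0.639 CPM per kilobase (SD, n = 3), without overlap.

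The widest gain of the module was in aldolase, which splits fructose 1,6-bisphosphate. ALDOC (gene identifier 230), the form known from brain, stood at 18.0, 19.1 and 19.3 CPM in control libraries and at 138, 129.9 and 137 CPM with the OBF1 hairpin. The rise was 7.17-fold (log2 fold change 2.84, SE 0.04, edgeR adjusted p = 4.91e-20), and the 2 groups were far apart. ALDOA, the ubiquitous and much more abundant form, rose by 0.27 on the same scale (SE 0.03, edgeR adjusted p = 5.73e-08), from 855, 895 and 857 CPM to 1072, 1016 and 1049 CPM. The ALDOC share of aldolase transcript per length went from 4.35% ± 0.155 to 21.3% ± 0.184 (SD, n = 3), a difference of 17.0 percentage points. In raw counts, where the shorter ALDOC weighs less, the difference was 9.32 points.

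Phosphofructokinase 1, the committed step, shifted towards its liver-type subunit. PFKL (gene identifier 5211) measured 108, 115 and 103 CPM with the control hairpin and 186, 176 and 182 CPM in OBF1 shRNA cells, a 1.67-fold rise (log2 fold change 0.74, SE 0.04, edgeR adjusted p = 1.89e-12). The muscle-type subunit PFKM rose by 0.36 (SE 0.03, edgeR adjusted p = 1.44e-09), from 151, 145 and 149 CPM to 192, 187 and 191 CPM. PFKP, the platelet type, did not pass the test, at 102, 104 and 101 CPM against 106, 105 and 110 CPM (edgeR adjusted p = 0.0794), although its groups did not overlap. Without control replicate 2 it was called higher (adjusted p = 0.0437). The PFKP share per length was 26.9% ± 0.321 in control and 21.3% ± 0.386 in OBF1 shRNA libraries, and the PFKL share 26.4% ± 1.14 and 33.4% ± 0.391 (SD, n = 3).

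The bifunctional PFKFB enzymes set the level of fructose 2,6-bisphosphate, the main activator of phosphofructokinase 1. PFKFB4 (gene identifier 5210) rose 2.03-fold, from 6.59, 5.86 and 5.43 CPM to 11.7, 12.2 and 12.3 CPM (log2 fold change 1.02, SE 0.08, edgeR adjusted p = 2.42e-09), and its groups did not overlap. PFKFB3, the most abundant of the 4 and the one known for high kinase activity, went from 44.2, 48.7 and 48.1 CPM to 50.7, 52.2 and 51.9 CPM, a log2 fold change of 0.13 (SE 0.04, edgeR adjusted p = 0.00834). That call was lost with library sizes alone (adjusted p = 0.593) and without control replicate 1 (adjusted p = 0.0620). PFKFB2 overlapped between the groups, at 12.6, 11.1 and 13.0 against 13.0, 13.5 and 11.7 CPM (edgeR adjusted p = 0.489). The PFKFB4 share of their summed level per length was 12.8% ± 1.55 in control and 21.6% ± 0.394 in OBF1 shRNA libraries (SD, n = 3).

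The single-gene steps and the lower part of the chain were higher by small amounts. GPI, which isomerises glucose 6-phosphate, rose by 0.21 on the log2 scale, and TPI1, which interconverts the triose phosphates, by 0.33. All 6 genes from GAPDH to pyruvate kinase were called higher, where 37.5% of all tested genes were, and 5 of them under every scaling tried; ENO1 kept its sign but lost its call with library sizes alone (adjusted p = 0.0677). GAPDH had the highest level per length of the 41 genes, and its libraries held 4138, 4325 and 4206 CPM with the control hairpin and 5036, 4907 and 4948 CPM in OBF1 shRNA cells, a log2 fold change of 0.23 (SE 0.03, edgeR adjusted p = 1.48e-07). The ATP-forming kinase gene PGK1 rose by 0.21, the mutase gene PGAM1 by 0.38 and the pyruvate kinase gene PKM by 0.37. PKM1 and PKM2, the splice forms of PKM, are not separated in gene counts. Enolase was led by ENO1, at 97.5% ± 0.247 of the summed level per length in control libraries (SD, n = 3), and ENO1 rose by 0.16 (SE 0.03, edgeR adjusted p = 3.68e-05), from 1661, 1707 and 1659.7 CPM to 1921, 1799.6 and 1894 CPM. The neuronal enolase gene ENO2 (gene identifier 2026) rose 1.82-fold, from 20.8, 17.7 and 21.0 CPM to 35.8, 36.7 and 35.5 CPM (log2 fold change 0.86, SE 0.06, edgeR adjusted p = 1.69e-10), and its share went from 1.40% ± 0.146 to 2.27% ± 0.113 (SD, n = 3).

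Several of these genes have processed pseudogenes, and how reads shared with them were counted is not given in the sources used here. RefSeq names 65 pseudogenes after GAPDH, 13 after PGAM1, 6 after LDHA and 46 after BNIP3, so the values of these genes are uncertain. PFKM overlaps SENP1, TPI1 overlaps SPSB2 and PFKFB2 overlaps YOD1 in the RefSeq annotation, and the strand setting of the counting is not given either.

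**Figure D3:**
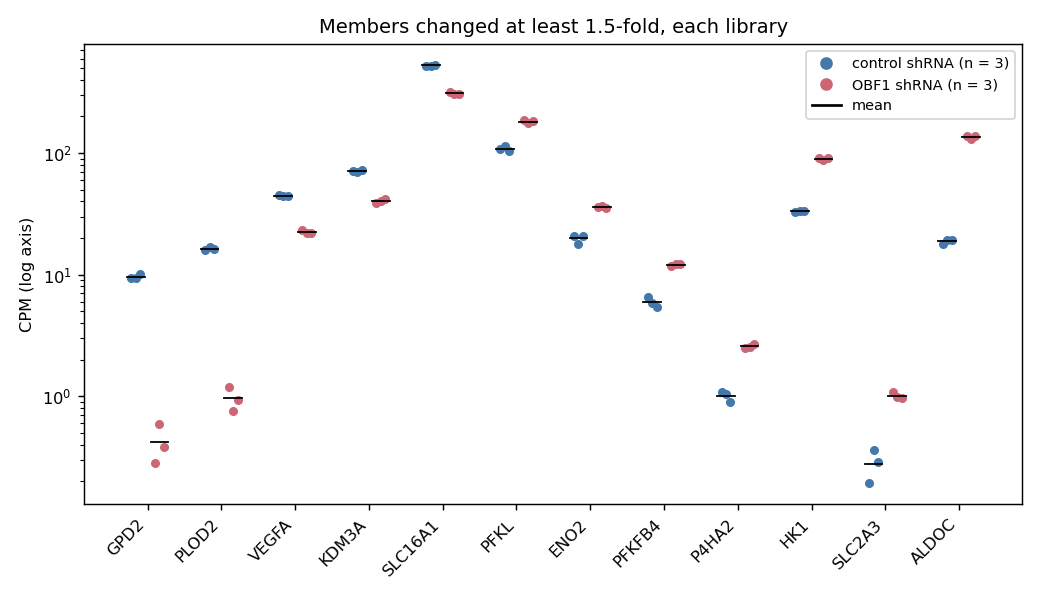
CPM (log axis) in each library for the 12 genes called with a change of at least 1.5-fold, ordered by fold change; points are libraries and lines are means of 3. In each of the 12 genes the control and OBF1 shRNA libraries form separate groups, and the OBF1 shRNA libraries of GPD2 and PLOD2 lie near or below 1 CPM. The genes were picked by their change in these same libraries, so this separation carries no weight. SLC2A3 and GPD2, both among the 12, passed the count filter only through the group where they were high.

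At the pyruvate branch, both lactate dehydrogenase genes rose and the lactate transporter gene SLC16A1 fell. LDHB, which encodes the heart-type subunit, rose by 0.51 on the log2 scale (SE 0.03, edgeR adjusted p = 6.14e-12), from 1119, 1172 and 1117 CPM to 1637, 1573 and 1653 CPM. LDHA, the muscle-type subunit and a HIF target, rose by 0.28 (SE 0.02, edgeR adjusted p = 7.23e-09), from 1023, 1066 and 1048 CPM to 1254, 1272 and 1291 CPM. LDHA was thus the smaller part per length in both groups, at 36.6% ± 0.379 in control and 33.0% ± 0.609 in OBF1 shRNA libraries (SD, n = 3). SLC16A1 (gene identifier 6566), which encodes the monocarboxylate transporter MCT1, fell 1.69-fold, from 525, 524 and 532 CPM to 319, 306 and 308 CPM (log2 fold change -0.76, SE 0.02, edgeR adjusted p = 5.27e-15). SLC16A3, which encodes MCT4, the lactate exporter of hypoxic cells, had 0 counts in the control libraries, where 3 counts over the group would be 0.0311 CPM, and 1 count in the OBF1 shRNA libraries. MCT1 was therefore the only one of the 2 transporters with more than a trace of transcript in either group.

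Pyruvate dehydrogenase kinases switch off the entry of pyruvate into the citric acid cycle. PDK1, a HIF target, rose by 0.23 on the log2 scale (SE 0.04, edgeR adjusted p = 1.40e-05), from between 47.6 and 49.1 to between 56.3 and 57.1 CPM. PDK3 did not pass, at 50.5, 45.6 and 50.7 CPM with the control hairpin and 46.9, 46.5 and 44.6 CPM in OBF1 shRNA cells (edgeR adjusted p = 0.0790). It was called lower with upper-quartile factors (adjusted p = 0.0395), with library sizes alone (0.000838) and without control replicate 2 (0.00661). PDK1 made up 58.2% ± 0.862 of the PDK transcript per length in control and 61.1% ± 1.01 in OBF1 shRNA libraries (SD, n = 3), a difference of 2.89 points, or 4.57 points in raw counts.

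The mitochondrial enzyme of the glycerol phosphate shuttle was nearly lost at the transcript level, while its cytosolic partners did not pass the test. GPD2 (gene identifier 2820) had 291, 313 and 320 counts in control libraries and 8, 18 and 12 counts in OBF1 shRNA libraries, or 9.32, 9.32 and 10.2 CPM against 0.281, 0.591 and 0.383 CPM. Its fall of 22.6-fold (log2 fold change -4.50, SE 0.16, edgeR adjusted p = 1.81e-14) was the largest of the 41 genes. GPD2 had all 3 libraries past the filter's minimum only in the control group, where it was high. Its call and the separation of its groups therefore carry no weight. Of the cytosolic genes, GPD1L, a relative of GPD1, had the higher transcript level, and enzyme activity was not measured. GPD1L was at 38.4, 39.2 and 40.9 CPM with the control hairpin and 41.2, 36.7 and 36.0 CPM in OBF1 shRNA cells, with overlapping groups (edgeR adjusted p = 0.286). GPD1 itself was low, at 0.992, 0.893 and 0.762 CPM against 0.739, 0.722 and 0.447 CPM (log2 fold change -0.48, SE 0.25, edgeR adjusted p = 0.0964). Both cytosolic genes were called lower with library sizes alone (adjusted p = 0.0443 for GPD1 and 0.00541 for GPD1L), and GPD1L also without OBF1 shRNA replicate 1 (0.0360). Per length, GPD2 went from 1.47 ± 0.0742 to 0.0639 ± 0.0241 CPM per kilobase, and GPD1L stood at 9.73 ± 0.316 and 9.34 ± 0.691 CPM per kilobase (SD, n = 3).

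The malate aspartate shuttle is the other route by which cytosolic NADH reaches mitochondria. Of its 7 genes examined, all tested, 6 were higher and 1 was lower. The cytosolic malate dehydrogenase gene MDH1 rose 1.73-fold, from 161 ± 1.23 to 279 ± 7.32 CPM (mean and SD of 3 libraries, edgeR adjusted p = 9.40e-15). GOT1, the cytosolic aspartate aminotransferase, was the gene that fell, 1.53-fold, from 159 ± 3.43 to 104 ± 2.18 CPM (mean and SD of 3 libraries, edgeR adjusted p = 1.87e-12). For pyruvate entry, 8 of 9 genes of the pyruvate dehydrogenase complex, its phosphatases and the mitochondrial pyruvate carrier were higher and 0 lower, but with library sizes alone 5 were higher and 1 lower. MPC1, a carrier subunit, rose 2.20-fold from 41.9 ± 1.30 to 92.2 ± 1.67 CPM, and PDHB, a dehydrogenase subunit, rose 1.47-fold from 116 ± 1.87 to 169.9 ± 3.14 CPM (mean and SD of 3 libraries; edgeR adjusted p = 3.94e-15 and 4.18e-12). Of 7 pentose phosphate pathway genes, 6 were higher and 1 lower, or 4 and 1 with library sizes alone. PGD, a dehydrogenase of that pathway, rose 1.37-fold, from 313 ± 7.73 to 428 ± 0.823 CPM (mean and SD of 3 libraries, edgeR adjusted p = 1.39e-11). Over all tested genes 37.5% were higher, as given above.

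**Figure D4:**
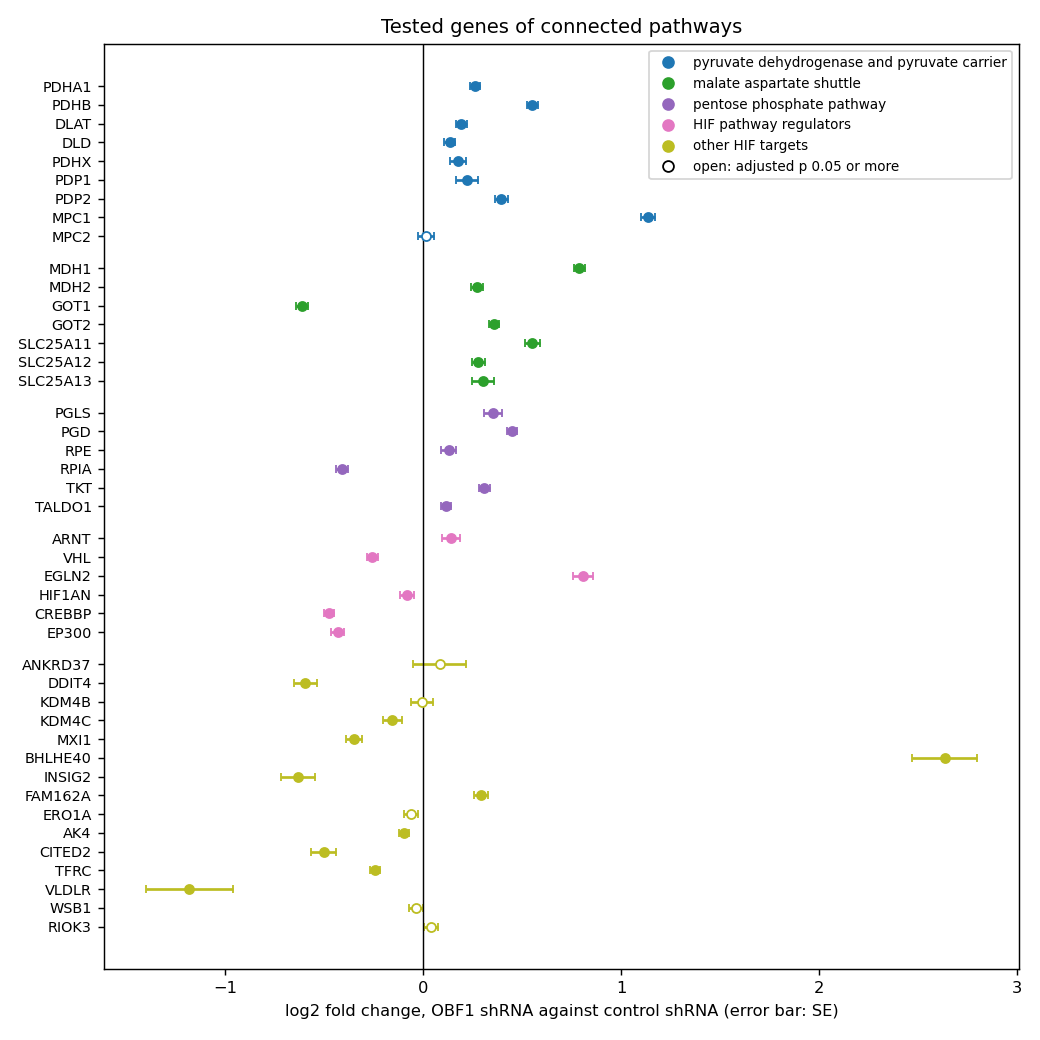
Log2 fold change of OBF1 shRNA against control shRNA for the tested genes of 5 connected gene lists, all but 1 of them drawn, with the standard error as bar; filled points passed the edgeR test. Points of pyruvate entry, the malate aspartate shuttle and the pentose phosphate pathway lie mostly right of 0, and those of the other HIF targets mostly left of it apart from BHLHE40 at 2.63; with library sizes alone all points shift by about -0.11 and MPC2 is called lower.

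Isozyme make-up was compared over 13 enzyme steps, with 1 share per library. The control and OBF1 shRNA libraries did not overlap for 11 of the 13 steps. The exceptions were the monocarboxylate transporters and the cytosolic glycerol 3-phosphate dehydrogenases. As the levels of 76.6% of all tested genes did not overlap either, the count of 11 carries no weight. With 3 libraries against 3 the two-sided exact permutation test cannot go below p = 0.1, the value found for each of the 11 steps (0.118 after Benjamini-Hochberg adjustment over the 13), so no share passed a threshold of 0.05. The shifts of hexokinase, by 25.8 percentage points, and aldolase, by 17.0 points, were many times the SD between libraries. For enolase, the glucose transporters, the pyruvate dehydrogenase kinases and the collagen prolyl 4-hydroxylases, the share of the tested isozyme shifted by under 3 points. The share of PDK3, which was not the tested kinase, changed by -3.84 points.

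**Figure D5:**
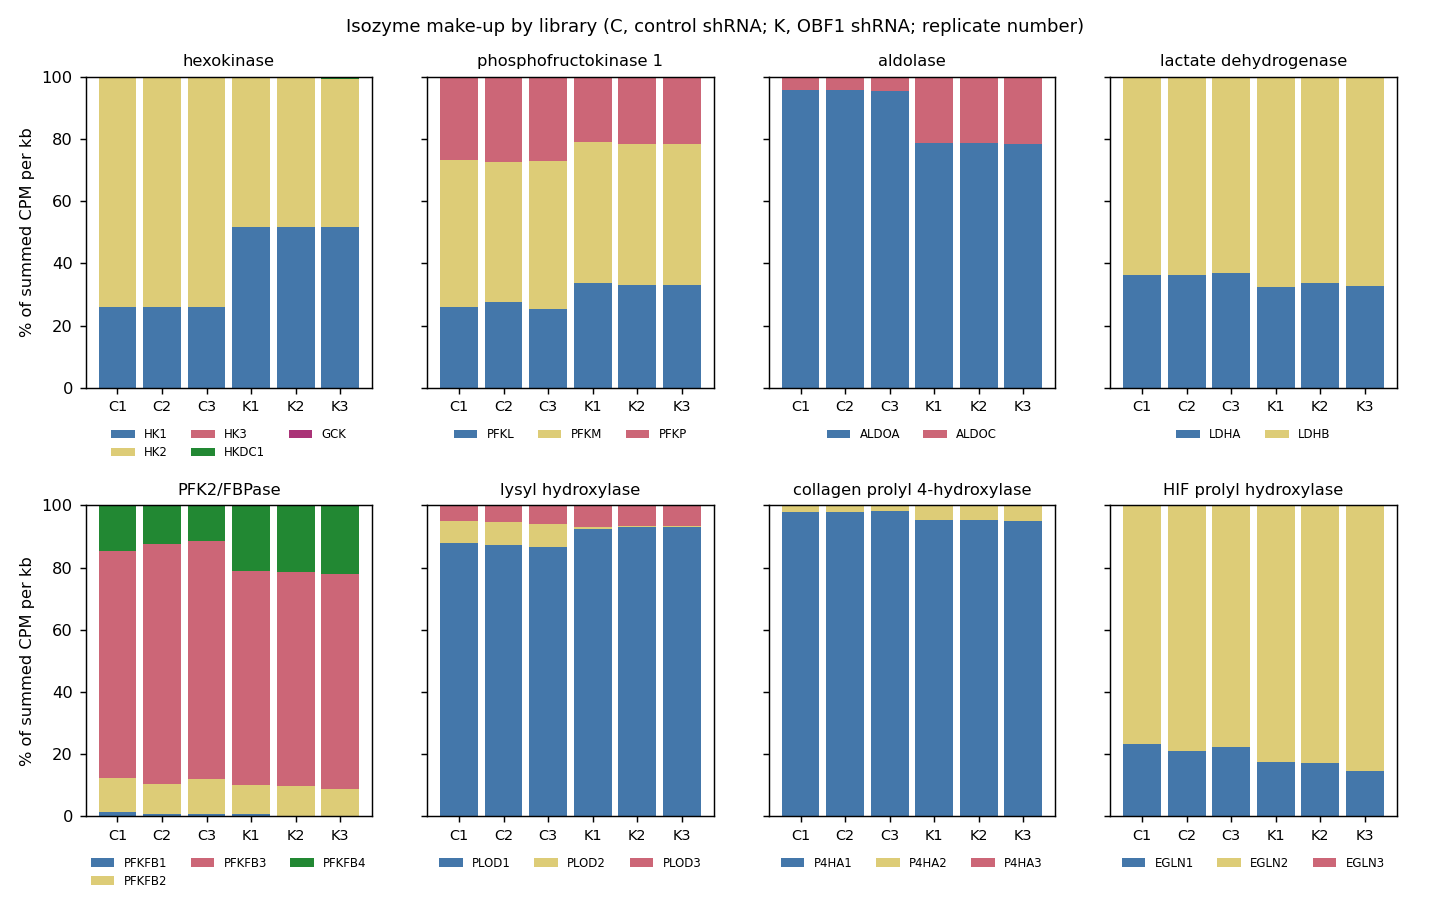
Share of each isozyme in the summed CPM per kilobase of its enzyme step, for each library (C1 to C3, control shRNA; K1 to K3, OBF1 shRNA), at 8 of the 13 steps; 1 minor aldolase form is not drawn. HK1 goes from 26.0% to 51.8% of hexokinase and ALDOC from 4.35% to 21.3% of aldolase, while PLOD2 shrinks from 7.26% to 0.422% of the lysyl hydroxylases.

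The transcript of HIF1A itself rose slightly, and that of its oxygen-sensing hydroxylase EGLN1 rose too. HIF1A, the oxygen-regulated subunit, was at 204, 198 and 209 CPM with the control hairpin and 255, 259 and 261 CPM in OBF1 shRNA cells, a log2 fold change of 0.35 (SE 0.03, edgeR adjusted p = 1.84e-09). EGLN1, the main HIF prolyl hydroxylase and itself a HIF target, rose by 0.27 (SE 0.05, edgeR adjusted p = 0.000146), from 29.0, 28.2 and 27.3 CPM to 36.4, 33.6 and 31.9 CPM. EGLN3, which hypoxia induces in many cells, had 1 count in all control libraries together and 0 in the OBF1 shRNA libraries, where 3 counts over the group would be 0.0332 CPM. Among 9 other regulators of the pathway, 6 were tested, with 2 higher and 4 lower, where 37.5% of all tested genes were higher and 37.9% lower. HIF1AN, an asparagine hydroxylase of HIF and 1 of the 4, rested on a weak call (edgeR adjusted p = 0.0379) that did not hold by DESeq2 (adjusted p = 0.0887), without the count filter (edgeR, 0.0717), with the replicate number as a block (0.0556), or without OBF1 shRNA replicate 1 (0.0586) or 2 (0.178) or control replicate 1 (0.175) or 3 (0.0587). ARNT, the partner subunit of HIF1A and 1 of the 2, was not called with library sizes alone (edgeR adjusted p = 0.57) or without OBF1 shRNA replicate 3 (0.0566). EGLN2, the third hydroxylase, rose 1.75-fold from 42.3 ± 2.63 to 74.1 ± 4.84 CPM, and CREBBP, a coactivator of HIF, fell 1.39-fold from 179 ± 1.26 to 129 ± 2.10 CPM (mean and SD of 3 libraries; edgeR adjusted p = 7.05e-11 and 1.81e-11). The EGLN1 share of the 3 hydroxylases was smaller in OBF1 shRNA libraries although EGLN1 rose, at 22.0% ± 1.11 and 16.3% ± 1.48 per length (SD, n = 3).

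VEGFA, KDM3A, BNIP3 and BNIP3L were listed as HIF targets outside glycolysis. Of these 4, 3 were tested and all 3 were lower, where 37.9% of all tested genes were. With so few genes the count carries no weight. Other HIF targets of the module went both ways, with EGLN1, PDK1 and LDHA higher and HK2 and SLC2A1 lower. These 5 are examples and do not give the balance, since many glycolytic genes are HIF targets too. Of the 9 genes from hexokinase to TPI1, 7 were higher and 1, HK2, lower. All 6 from GAPDH to pyruvate kinase were higher, where 37.5% of all tested genes were. Among the collagen hydroxylases, 3 were higher and 2, PLOD2 among them, lower. VEGFA (gene identifier 7422), which encodes the angiogenic growth factor, held 44.8, 44.2 and 44.5 CPM with the control hairpin and 23.3, 22.2 and 21.8 CPM in OBF1 shRNA cells, a 1.99-fold fall (log2 fold change -0.99, SE 0.04, edgeR adjusted p = 4.83e-13). KDM3A (gene identifier 55818), a histone H3 lysine 9 demethylase, fell 1.77-fold, from 71.5, 69.9 and 72.8 CPM to 38.9, 40.5 and 41.7 CPM (log2 fold change -0.82, SE 0.04, edgeR adjusted p = 1.26e-12). BNIP3L, a mitophagy receptor also called NIX, fell by 0.13 (SE 0.03, edgeR adjusted p = 0.00191), from between 82.5 and 84.8 to between 74.6 and 79.0 CPM. The groups of all 3 were separate, as were those of 76.6% of all tested genes. BNIP3, the close relative of BNIP3L, had 2 counts in the control and 1 count in the OBF1 shRNA libraries.

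A list of 26 further HIF targets gave a divided picture. Only 15 passed the count filter; CA9, a widely used hypoxia marker, had 0 CPM in all 6 libraries, and ADM, NDRG1 and ANGPTL4 were at most 0.106 CPM in any. Of the 15, 8 were lower, 2 higher and 5 did not pass, where 37.9% of all tested genes were lower, and the list's median log2 fold change was -0.10. With library sizes alone 10 were lower, and without OBF1 shRNA replicate 1 or control replicate 3 KDM4C was not called and 7 were. BHLHE40, a basic helix-loop-helix repressor, rose 6.21-fold from 0.731 ± 0.179 to 4.54 ± 0.193 CPM, and DDIT4, an inhibitor of mTOR signalling, fell 1.51-fold from 52.4 ± 3.31 to 34.7 ± 3.27 CPM (mean and SD of 3 libraries; edgeR adjusted p = 7.23e-11 and 4.13e-08).

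Collagen hydroxylases modify proline and lysine residues of collagen in the endoplasmic reticulum, and several are HIF targets. PLOD2 (gene identifier 5352), which hydroxylates lysines of the collagen telopeptides, fell 17.0-fold. Its counts were 496, 565 and 509 in control libraries and 34, 23 and 29 in OBF1 shRNA libraries, or 15.9, 16.8 and 16.2 CPM against 1.20, 0.755 and 0.926 CPM (log2 fold change -4.09, SE 0.11, edgeR adjusted p = 5.61e-16). Its relatives did not fall with it: PLOD3 rose by 0.33 (SE 0.09, edgeR adjusted p = 0.00356) at 5.03, 5.15 and 5.59 against 6.97, 6.53 and 6.29 CPM, and PLOD1 was called higher by 0.11 (SE 0.03, edgeR adjusted p = 0.00574) but not with library sizes alone, where its log2 fold change was -0.00036 (adjusted p = 0.993). The libraries of PLOD1 held 93.5, 91.8 and 88.1 CPM with the control hairpin and 98.3, 99.9 and 96.7 CPM with the OBF1 hairpin. PLOD1 was the main form throughout, so the summed level per length of the 3 genes overlapped between the groups, at 32.9 ± 0.761 and 33.3 ± 0.536 CPM per kilobase (SD, n = 3). The PLOD2 share was 7.26% ± 0.272 in control and 0.422% ± 0.0983 in OBF1 shRNA libraries (SD, n = 3), a difference of -6.84 points, or -13.5 points in raw counts.

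The prolyl 4-hydroxylase subunits divided as well. P4HA2 (gene identifier 8974) rose 2.55-fold at a low level, from 34, 35 and 28 counts to 71, 77 and 84 counts, or 1.09, 1.04 and 0.889 CPM against 2.50, 2.53 and 2.68 CPM (log2 fold change 1.35, SE 0.16, edgeR adjusted p = 6.58e-07). P4HA1, the main subunit, went from 61.6, 59.9 and 60.4 CPM to 56.7, 56.0 and 56.9 CPM, a log2 fold change of -0.10 (SE 0.04, edgeR adjusted p = 0.0152). That call was lost with DESeq2 (adjusted p = 0.0531), without control replicate 1 (edgeR adjusted p = 0.0640) and without OBF1 shRNA replicate 2 (0.0507). Among 6 markers of fibroblasts and stroma, a collagen gene moved beside these enzymes: COL1A1 was at 2.64 ± 0.0767 CPM with the control hairpin and 32.2 ± 0.649 CPM in OBF1 shRNA cells (mean and SD of 3 libraries, edgeR adjusted p = 3.10e-18). COL1A2, COL3A1, DCN and LUM were at most 0.0638 CPM in any library and FN1 at most 0.281 CPM. The whole list summed to between 2.71 and 2.95 CPM with the control hairpin and between 31.8 and 33.1 CPM in OBF1 shRNA cells.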

How the data were processed

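RNA was sequenced from 6 libraries of Raji cells, with groups and replicate numbers taken from the sample titles. Libraries were stranded poly(A) libraries, per the labels' protocols. The authors deposited raw read counts per gene beside each gene's length. Builds hg19 and mm9 are listed, per the submitters' processing notes. Neither the aligner nor the counting tool, annotation or strand setting is given in the sources used here. Of 23459 rows, 23308 matched a symbol in the RefSeq gene table of assembly GRCh38.p14. Its coordinates served only to find overlapping genes, and the promoter windows carry that build.

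Counts were tested in R 4.3.3 with edgeR 4.0.16. Genes passing filterByExpr (min.count 10, min.total.count 15; 12010 genes) were scaled by TMM and compared by the quasi-likelihood F test on all 6 libraries, with Benjamini-Hochberg adjustment over all tested genes. Standard errors come from the fold change and its F statistic. CPM use TMM-scaled library sizes, and levels per length divide by the deposited gene length. Isozyme shares were compared with scipy 1.17.1. On counts simulated for this comparison (11949 genes tested) 76% of the 1.25-fold changes were called, as were 94% of the 1.5-fold, 97.9% of the 2-fold and 100% of the 4-fold changes.

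The members, gene lists and tests were chosen with earlier results of these data known. Values in each library are given for members called at 1.5-fold or more and for their isozymes, and 2 genes with the smallest p-values are named from each context list; further genes named there were picked after their values were seen. Some genes of these lists are not reported here by name. Pairs of libraries of a group differed by 1.89 to 3.28 chi-square units per degree of freedom, so none looked like 1 library deposited again. Alternatives were DESeq2 1.42.0, limma-voom (limma 3.58.1), glmTreat against 1.5-fold, RLE factors, upper-quartile factors, library sizes alone, other filters (1 count in all, called no filter here, or 1 CPM in 3 libraries), a replicate block, and leaving out each library. Intervals of counting error are not given because replicate spread is, and the 3-count limits cover counting error only.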

Additional observations from a re-analysis of the deposited data

How the results depend on the processing

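Testing against a 1.5-fold change with glmTreat left 7 genes of the module called higher and 5 lower, and 1967 of all genes, since it asks for a larger change. Under the other planned settings 21 to 24 were higher and 8 to 12 lower; with 1 library left out, 23 to 25 were higher and 8 to 10 lower, and 8632 to 8974 of all genes were called. With library sizes alone the signs of PFKP (-0.048), PFKFB2 (-0.0500) and PLOD1 (-0.00036) reversed, as did that of PFKFB2 without control replicate 2 (-0.0030, in a range up to 0.12 without OBF1 shRNA replicate 3). The same replicate numbers did not pair the libraries: deviations of same-numbered libraries correlated at 0.0098, -0.12 and -0.064, and with the replicate as a block 24 genes of the module were higher, 9 lower and 8759 of all genes called. Without division by length the share differences were 23.0 points for HK1, -6.14 for PFKP, -4.38 for PFKFB3, 9.32 for ALDOC, 0.720 for ENO2, 4.57 for PDK1, -2.58 for P4HA1, -13.5 for PLOD2 and -8.52 for EGLN1, because isozymes differ in length. With 1 library left out they ranged from 25.7 to 25.8 for HK1, -5.80 to -5.41 for PFKP, -7.95 to -5.85 for PFKFB3, 16.9 to 17.1 for ALDOC, 0.787 to 0.917 for ENO2, 2.32 to 3.37 for PDK1, -2.95 to -2.74 for P4HA1, -7.00 to -6.75 for PLOD2, and -6.30 to -4.87 for EGLN1. Depth limits SLC16A3, EGLN3 and BNIP3, which had at most 2 counts in a group, and widens the error of SLC2A3, GPD1 and P4HA2.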

Other observations

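Isozymes and side enzymes outside the module, a list of 19 genes, were mostly silent or low: 8 passed the count filter, of which 3 were higher, 3 lower and 2 did not pass the edgeR test, where 75.4% of all tested genes were called (2 higher and 4 lower with library sizes alone). The muscle enolase gene ENO3 fell 2.34-fold, from 10.2 ± 1.03 to 4.35 ± 0.545 CPM (mean and SD of 3 libraries, edgeR adjusted p = 5.35e-09), which is the opposite direction to ENO2. TIGAR, a phosphatase that lowers fructose 2,6-bisphosphate, rose 1.33-fold, from 44.3 ± 0.549 to 59.1 ± 1.54 CPM (mean and SD of 3 libraries, edgeR adjusted p = 1.37e-08), beside the gain of PFKFB4. HKDC1, a further hexokinase, was at 0.0893 to 0.190 CPM with the control hairpin and 0.394 to 0.670 CPM with the OBF1 hairpin; it passed the filter only through the group where it was high, so its call carries no weight. It was at most 0.481% of hexokinase transcript per length. PDK4 had 0 counts in all 6 libraries.

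Summed over isozymes, the level per length of the enzyme steps ranged from 0.590 times the control to 1.63 times. The lowest was that of the monocarboxylate transporters SLC16A1 and SLC16A3, without SLC16A7, and the highest that of the HIF prolyl hydroxylases. Aldolase stood at 1.46 times, hexokinase at 1.36, lactate dehydrogenase at 1.35 and phosphofructokinase 1 at 1.32, each without overlap between the groups. The sums of the lysyl hydroxylases (1.01 times) and of the cytosolic glycerol 3-phosphate dehydrogenases (0.954 times) overlapped. These sums are described, not tested, and the groups did not overlap for 76.6% of all tested genes.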
